A study of Gallus gallus with 6 samples.

Results

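The Toll-like receptors of the chicken and the adaptor MYD88 were followed in DT40 cells with and without PAX5, through every array probe set annotated with TLR3, TLR4, TLR5, TLR7, TLR15, TLR21 or MYD88 as its only gene symbol. These 7 genes had 15 probe sets, of 13009 genes and 38439 probe sets measured. DT40 is a chicken B cell line of the bursa of Fabricius. Wild-type cells (3 samples) were compared with Pax5-/- cells (3 samples), in which the PAX5 gene had been targeted with the Pax5-neo and Pax5-bsr constructs and stable clones selected, so transfection and selection cannot be told apart from the loss of PAX5. How many clones the 3 Pax5-/- samples represent is not stated. The genotype labels give wild type and Pax5-/-, while the RNA extraction text shared by all 6 samples also mentions Bcl6-/- cells, which no label assigns to a sample. Both groups were grown in the same medium with bovine and chicken serum, and no Toll-like receptor ligand is named among the treatments. Each sample was read on 1 Affymetrix array as RMA values on the log2 scale. They are described as biological replicates without mention of separate cultures, and p-values therefore reflect only how these 6 samples vary, which may be technical.

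Toll-like receptors are membrane proteins that recognise molecules of microbes and signal through a cytoplasmic TIR domain. MYD88 carries the signal of most of them to the IRAK kinases, TRAF6 and NF-kB, while TLR3 signals through the adaptor TICAM1. In birds TLR3 recognises double-stranded RNA, TLR7 single-stranded RNA, TLR4 lipopolysaccharide and TLR5 flagellin. TLR21 takes the place of mammalian TLR9 as the receptor of unmethylated CpG DNA, and TLR15 is a receptor of birds and reptiles that has no mammalian counterpart. B cells use such receptors beside the B cell receptor to respond to microbes.

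The background of an array was set at the 95% point of 689 probe sets taken as virus genome ones, and lay between 3.78 and 3.93. PAX5 itself was read by 4 probe sets. Of these 1 fell, from 4.42 ± 0.12 to 3.58 ± 0.26 (SD, n = 3; limma adjusted p = 0.00483), reaching background in each Pax5-deficient sample, and 2 were at background throughout. The brightest was above background in both groups, at 4.58 ± 0.08 and 4.82 ± 0.07, and did not pass, and where the probes lie relative to the targeted part was not analysed here. Array-wide medians lay between 3.95 and 4.02, and no array stood apart from its group, with correlations across probe sets of 0.991 or more within groups. B lineage markers were present in wild-type cells, and 7 of 11 fell while BLB1 rose, where 9.74% and 6.01% of all genes did. The largest fitted falls were 6.60 ± 0.20 (SE) in VPREB3, 5.24 ± 0.12 in EBF1 and 4.02 ± 0.12 in CD72. EBF1 was at background in each Pax5-deficient sample, so its fall is given as at least 27.9-fold. IRF4, CD40 and JCHAIN did not pass. The mean log2 level of all 11 B lineage markers was 9.65 to 9.76 in wild-type and 7.82 to 7.95 in Pax5-deficient samples. A summed level is weighted to bright markers such as JCHAIN. Its log2 was 14.19 to 14.41 in wild-type and 13.54 to 13.76 in Pax5-deficient samples. The part of this list in the results was not tested. Toll-like receptors are also genes of myeloid cells, whose markers were examined for that reason. Of 10 measured macrophage and myeloid markers CEBPB fell by 1.75 ± 0.19 and 9 did not pass. MARCO, LYZ and MMR1L4 were at background in every sample. TREM2 was above it in wild-type samples only, but its groups overlapped (3.86 to 3.91 and 3.45 to 3.87). Background reached 3.93 on Pax5-deficient and 3.81 on wild-type arrays. CSF1R, CEBPA, CEBPB, CSF3R, CYBB and C1QA were above background in every sample. Of these C1QA, CSF1R and CSF3R were near it, with means of 4.13, 4.59 and 4.71 in wild-type and 4.33, 4.56 and 4.88 in Pax5-deficient samples. The log2 of the list's summed level was 7.97 to 8.20 in wild-type and 7.79 to 8.08 in Pax5-deficient samples, and its part in the results was not tested. Of 7 T lineage markers CD3E fell and CD8A rose, CD4 and GATA3 were at background, and CD3D was bright in both groups (11.48 and 11.19). Of 5 fibroblast and stromal markers COL1A2 rose by 0.50 ± 0.10, 4 did not pass, and ACTA2 and DCN were at background. The log2 of that list's summed level was 7.30 to 7.46 in wild-type and 7.60 to 7.80 in Pax5-deficient samples, without overlap, and its part in the results was not tested. Of 2 thrombocyte and erythroid markers neither passed.

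TLR7 and MYD88 were lower in Pax5-deficient cells, and none of the 7 genes was higher. TLR7 was 2.86-fold lower and MYD88 1.95-fold lower on its brighter probe set. The dimmer MYD88 probe set differed in the other direction, by 0.34 log2 units, and did not pass. TLR21 was measured near background with no call, and on TLR3, TLR4 and TLR5 every probe set was at background in all 6 samples. Of the 15 probe sets 2 passed an adjusted p of 0.05, both lower, where 10.6% of all probe sets passed, 6.7% as lower and 3.93% as higher. By brightest probe set, 2 of the 7 genes were lower, where 15.8% of all genes passed, 9.74% as lower and 6.01% as higher. The groups did not overlap on 6 of the 15 probe sets, where they did not on 27.4% of all, and by brightest probe set in 3 of the 7 genes, where they did not in 35.0% of all. The median difference of the 15 probe sets was 0.07 on the log2 scale, and that of all probe sets was 0.03. The counts rest on 7 genes, so the values of each gene follow.

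TLR7, the receptor of single-stranded RNA in endosomes, lies on chromosome 1 and had 1 probe set. Its log2 values were 6.74, 7.11 and 7.03 in wild-type samples and 5.70, 5.14 and 5.48 in Pax5-deficient samples. All wild-type samples lay above all Pax5-deficient samples, and all 6 were above the background of their arrays. The level fell by 1.52 log2 units with an SE of 0.15 (n = 3 in each group), at an adjusted p of 0.000372 in limma. The 95% interval of the fold ran from 2.24 to 3.65. Of the 2576 probe sets that fell across the array, 312 had a larger fitted fall. In the manufacturer's naming the suffix of this probe set marks probes that can match more than 1 transcript, and no other probe set checks its value. In these bulk samples, fewer cells with a transcript and less of it in each cell cannot be told apart.

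MYD88, on chromosome 2, had 2 probe sets, whose differences were opposite in sign. On the brighter one the log2 values were 7.32, 7.46 and 7.36 in wild-type samples and 6.42, 6.48 and 6.35 in Pax5-deficient samples. The groups stood apart by far more than the SDs within them, 0.07 in both. The level fell by 0.96 ± 0.09 (SE, 3 samples a group; limma adjusted p = 0.00019), and the 95% interval of the fold ran from 1.70 to 2.24. Among all probe sets that fell, 762 had a larger fitted fall.

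On the dimmer MYD88 probe set the values were 4.98, 5.30 and 5.22 in wild-type samples and 5.29, 5.51 and 5.71 in Pax5-deficient samples. These groups overlapped at their edge, and the difference of 0.34 ± 0.13 did not pass (limma adjusted p = 0.159). The brighter probe set exceeded the dimmer by 2.22 ± 0.11 (SD, n = 3) in wild-type samples and by 0.91 ± 0.25 (SD, n = 3) in Pax5-deficient samples. That gap was smaller in every Pax5-deficient sample than in any wild-type sample (two-sided exact permutation p = 0.1, the smallest that 3 against 3 samples allow). The gap contains the brighter probe set, already called as lower, so this p is no separate evidence. The MYD88 transcripts that each probe set reads were not analysed here. With both probe sets averaged, MYD88 fell by 0.31 ± 0.09 (limma adjusted p = 0.0434, adjusted over gene means instead of probe sets). The size of the fall thus rests on the brighter probe set.

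**Figure D1:**
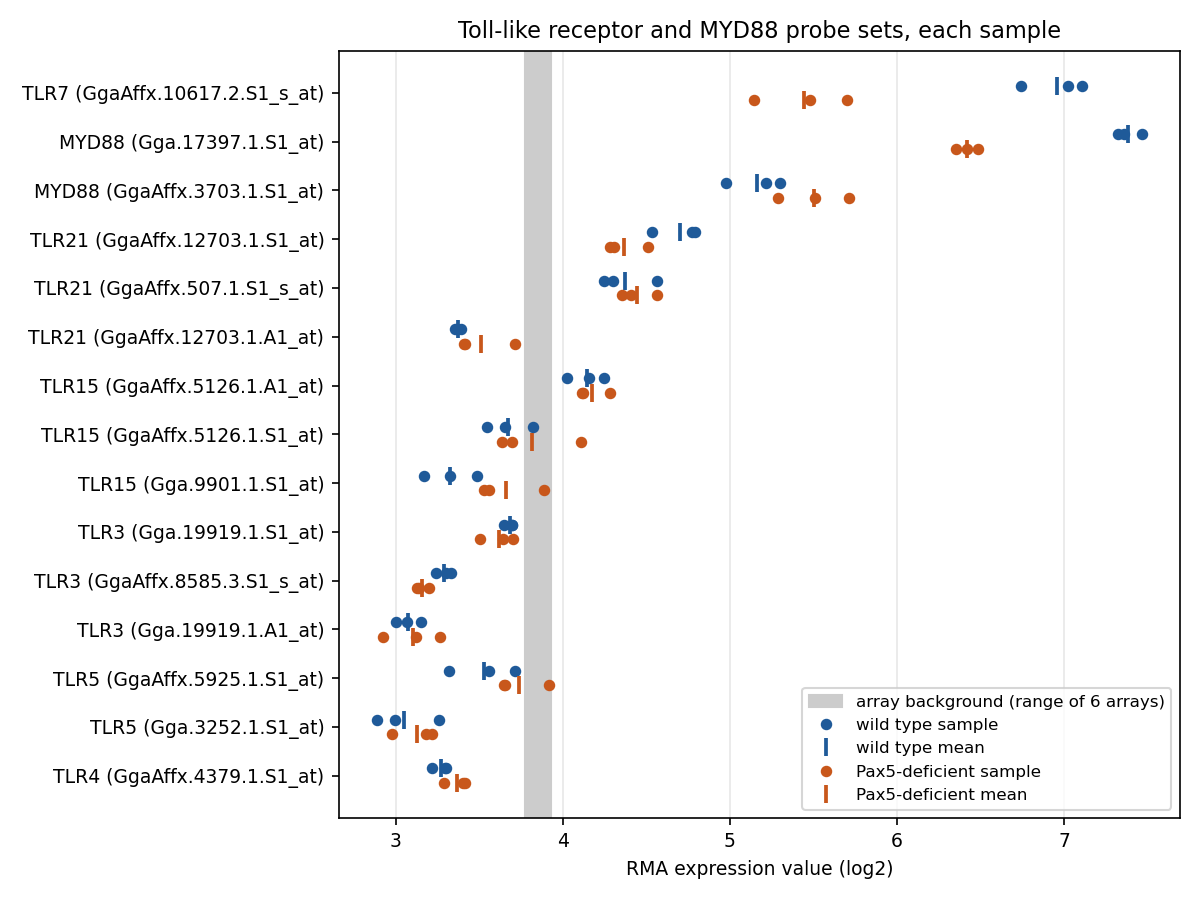
RMA expression values on the log2 scale (horizontal axis) of the 15 probe sets of the 7 genes (vertical axis), with a point for each of the 3 wild-type samples (blue) and 3 Pax5-deficient samples (orange), a tick for each group mean, and a grey band for the range of array backgrounds. TLR7 and the brighter MYD88 probe set stand well right of the band and are separated by group, while the 8 probe sets that are at background in every sample lie within or left of it.

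TLR21, the avian receptor of CpG DNA on chromosome 11, had 3 probe sets, of which 2 were above background in every sample. The brightest gave 4.77, 4.53 and 4.79 in wild-type samples and 4.28, 4.31 and 4.51 in Pax5-deficient samples. Its groups did not overlap, but the gap between the lowest wild-type and the highest Pax5-deficient sample was small, and the difference of -0.33 ± 0.11 did not pass (limma adjusted p = 0.094). The second gave 4.30, 4.25 and 4.56 in wild-type and 4.36, 4.41 and 4.56 in Pax5-deficient samples, with overlapping groups and a difference of 0.07 ± 0.11. The 2 probe sets thus differed in sign, and with all 3 averaged the difference was -0.04 ± 0.08. The brightest minus the second was 0.33 ± 0.12 (SD, n = 3) in wild-type and -0.08 ± 0.02 in Pax5-deficient samples, without overlap (two-sided exact permutation p = 0.1). That value contains the brightest probe set, whose groups already did not overlap, so this p, the smallest possible, is no separate evidence. On the brightest the interval reached from a 1.06-fold to a 1.49-fold lower level, and on the second from 1.13-fold lower to 1.25-fold higher.

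TLR15, on chromosome 3, had 3 probe sets, of which 1 was just above background in every sample. It gave 4.25, 4.16 and 4.02 in wild-type and 4.28, 4.12 and 4.12 in Pax5-deficient samples, and the groups overlapped (difference 0.03 ± 0.10). Another was above background in 1 sample of each group. The third was at background throughout, with a difference of 0.33 ± 0.13 that did not pass (limma adjusted p = 0.158), and at background a difference gives no fold.

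TLR3, on chromosome 4, TLR4, on chromosome 17, and TLR5, on chromosome 3, were measured by 3, 1 and 2 probe sets. TLR4 gave 3.22, 3.30 and 3.30 in wild-type and 3.40, 3.29 and 3.42 in Pax5-deficient samples. The TLR3 values ran from 2.92 to 3.70 and the TLR5 values from 2.89 to 3.92. All 6 TLR4 values were at background, and the same held for every sample on all 6 probe sets of the 3 genes. Together with 1 probe set each of TLR15 and TLR21, 8 probe sets were at background, with values from 2.89 to 3.92. Their differences ran from -0.13 to 0.33, and none passed. A level at background sets an upper limit to the signal and does not show that a transcript is absent.

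**Figure D2:**
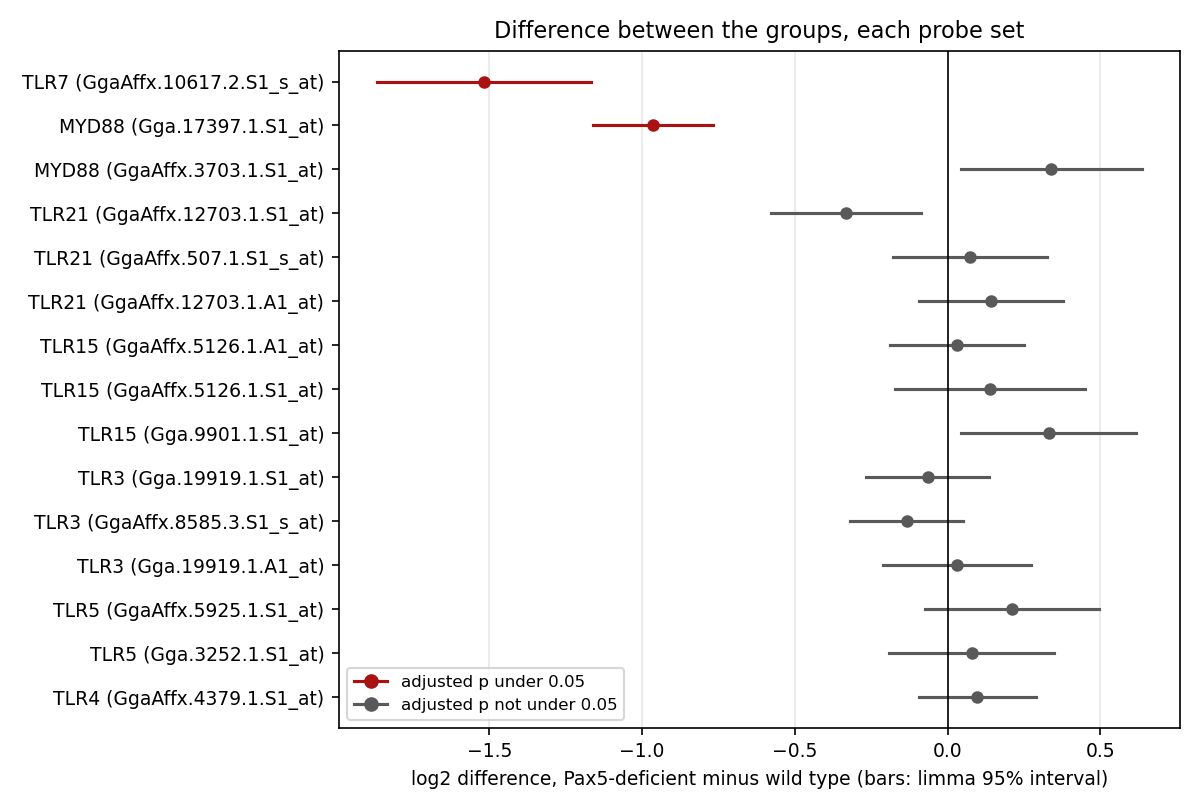
Difference between the groups for each of the 15 probe sets on the log2 scale (horizontal axis, Pax5-deficient minus wild type), with limma's 95% interval as a bar and probe sets past an adjusted p of 0.05 in red. TLR7 and the brighter MYD88 probe set lie far left of 0, and the intervals of the 13 others stay between -0.58 and 0.63.

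Over the 13 probe sets that did not pass, the intervals stayed between -0.58 and 0.63 on the log2 scale, and the adjusted p ranged from 0.094 to 0.913 (limma). At an unadjusted p under 0.05, 5 of the 15 were called, where 22.3% of all probe sets were. They were the 2 that passed, the brightest of TLR21, the dimmer of MYD88 and the third of TLR15.

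Among the other Toll-like receptors 2 had a probe set of their own, and 3 further probe sets list several receptor symbols and were not named. TLR1A, which with TLR2 recognises bacterial lipopeptides, fell from 5.44, 5.68 and 5.94 to 3.95, 3.70 and 3.82. All wild-type samples were above background, and of the Pax5-deficient samples only replicate 1 was, by a small margin. The fitted fall was 1.86 ± 0.13 log2 units (SE, 3 samples a group; limma adjusted p = 5.51e-05), against a group at or close to background, where the difference is limited by the floor of the array. TLR1A and TLR1B are neighbouring, similar genes, and the signal of a probe set that can match more than 1 transcript may hold both. TLR2A gave 6.01, 6.39 and 6.36 in wild-type samples and 5.59, 4.20 and 6.08 in Pax5-deficient samples. Replicate 2 stood far below the others of its group, replicate 3 lay within the wild-type range, and the difference of -0.96 ± 0.40 did not pass (limma adjusted p = 0.191). Without Pax5-deficient replicate 2 the TLR2A difference was -0.42.

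Of 7 measured chaperones and accessory proteins of the receptors, 1 fell, none rose and 6 did not pass. The shares over all genes were 9.74% lower and 6.01% higher. LY96, the coreceptor that holds lipopolysaccharide for TLR4, fell by 0.70 ± 0.12 log2 units (SE, 3 samples a group; limma adjusted p = 0.00578), from 10.26, 10.28 and 10.38 to 9.80, 9.37 and 9.66. It was bright in every sample while TLR4 was at background. HSP90B1, a chaperone that most Toll-like receptors need to fold, had a difference of 0.34 ± 0.12 on its brightest probe set and rose by 0.76 ± 0.16 on another. AP3B1, of an adaptor complex in endosomal sorting, had -0.41 ± 0.12 and fell by 0.36 ± 0.10 on another. SLC15A4, an endosomal transporter needed for TLR7 signalling in mammals, was at 6.51 in both groups, with a difference of -0.0039 ± 0.11.

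The 4 measured adaptors besides MYD88 went both ways, with 1 lower, 1 higher and 2 not passing. Among all genes 9.74% were lower and 6.01% higher. PIK3AP1, which links Toll-like and B cell receptors to PI3 kinase, fell by 1.21 ± 0.14 (SE, 3 samples a group; limma adjusted p = 0.000766), from 9.40, 9.44 and 9.44 to 8.17, 7.94 and 8.54. TIRAP, which bridges MYD88 to some receptors at the membrane, rose by 0.51 ± 0.10 (limma adjusted p = 0.01), from 7.22, 7.32 and 7.30 to 7.76, 7.94 and 7.66, and by 0.62 ± 0.10 on its other probe set. In both genes the groups did not overlap. TICAM1, the adaptor of TLR3, and SARM1, a TIR protein that restrains it, had differences of 0.26 ± 0.10 and 0.11 ± 0.09, and neither passed.

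**Figure D3:**
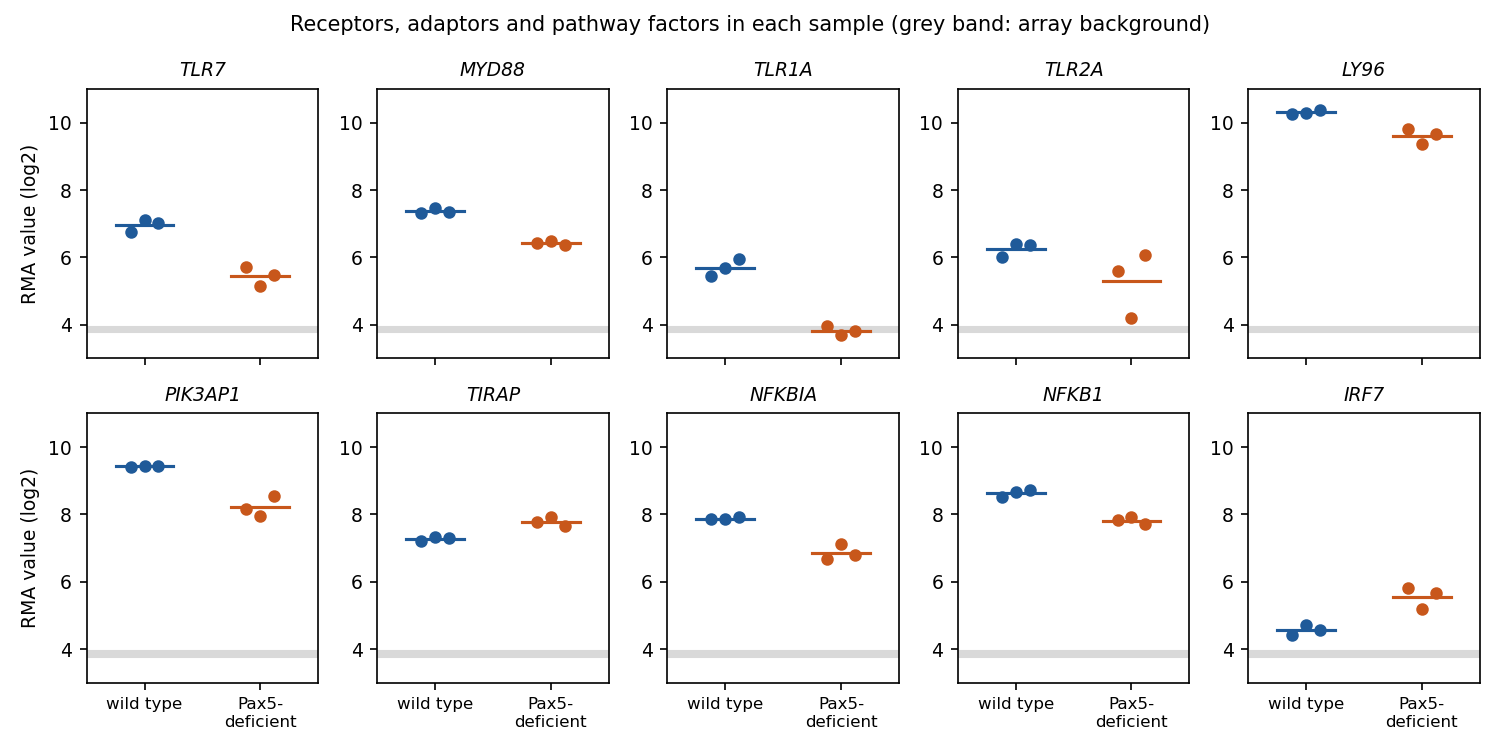
RMA expression values on the log2 scale (vertical axis, the same range in every panel) of TLR7, MYD88 and 8 other genes of the pathway, with a point for each of the 3 samples per group, a line at the group mean and a grey band for the range of array backgrounds. Each gene is drawn on its brightest probe set, so the dimmer MYD88 probe set is not shown. The 8 other genes were picked without a set rule. TIRAP and IRF7 are higher in all 3 Pax5-deficient samples, and TLR2A spreads from 4.20 to 6.08 in them. In the other panels all 3 Pax5-deficient samples lie below all wild-type samples.

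Of 17 measured kinases, ubiquitin ligases and partners downstream of MYD88 or TICAM1, 4 fell, none rose and 13 did not pass. The shares over all genes were 9.74% lower and 6.01% higher. PELI3, of a family of ubiquitin ligases that act on IRAK proteins, fell by 1.36 ± 0.12 log2 units (SE, 3 samples a group). Its 2 other probe sets did not pass, the dimmer of them at background in every sample, and the mean of the 3 fell by 0.45. TRAF3, a ubiquitin ligase of the interferon branch, fell by 1.11 ± 0.12 and on both other probe sets as well. TAB2, which activates the kinase MAP3K7, fell by 0.90 ± 0.16. Of its 5 other probe sets 2 fell too, the rest were at background in every sample, and the mean of all fell by 0.42. TANK, a partner of TRAF proteins and TBK1, fell by 0.79 ± 0.11. The brightest that did not pass were UBE2N, MAP3K7 and IRAK2, with -0.27 ± 0.09, -0.32 ± 0.09 and 0.30 ± 0.11. The highest limma adjusted p of the 4 that fell was 0.00844, for TAB2.

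Of 7 measured inhibitors of the pathway 1 fell, none rose and 6 did not pass, where 9.74% of all genes fell and 6.01% rose. SOCS1, an inhibitor of cytokine and Toll-like receptor signalling, fell from 6.28, 5.52 and 5.57 to 4.14, 3.80 and 3.95, by 1.83 ± 0.20 log2 units (SE, 3 samples a group; limma adjusted p = 0.000504). TOLLIP, USP25 and CYLD, which are bright on the array, had differences of 0.05 ± 0.09, -0.09 ± 0.09 and 0.08 ± 0.09.

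Of 13 measured NF-kB, IRF and AP-1 factors and NF-kB inhibitors, 4 fell, 1 rose and 8 did not pass. Among all genes 9.74% fell and 6.01% rose. NFKBIA, the NF-kB inhibitor that is itself an NF-kB target, fell by 1.01 ± 0.12 log2 units (SE, 3 samples a group; limma adjusted p = 0.000791), from 7.85, 7.85 and 7.91 to 6.69, 7.12 and 6.79. NFKB1 fell by 0.82 ± 0.10 (limma adjusted p = 0.000787), NFKBIZ fell by 1.97 ± 0.23 and IRF8 fell by 0.73 ± 0.19. The IRF8 call was lost after quantile normalization and without any sample except Pax5-deficient replicate 2 (limma adjusted p = 0.0533 to 0.164). IRF7, the interferon regulator that acts below TLR7 in mammals, rose from 4.40, 4.71 and 4.57 to 5.82, 5.20 and 5.66, by 1.00 ± 0.16 (limma adjusted p = 0.00423), with no overlap. REL, JUN and IRF1 had differences of -0.09 ± 0.12, 0.56 ± 0.28 and -0.71 ± 0.23, and none passed.

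Of 15 measured cytokines and effectors that the pathway is known to induce in immune cells, 2 rose, 1 fell and 12 did not pass. The shares over all genes were 6.01% higher and 9.74% lower. NOS2, the inducible nitric oxide synthase, rose from 6.05, 6.17 and 6.56 to 6.93, 7.19 and 7.10, by 0.81 ± 0.14 log2 units (SE, 3 samples a group; limma adjusted p = 0.00631). LITAF, a factor linked to inflammatory cytokines, rose by 0.54 ± 0.09 and by 0.82 ± 0.09 on its other probe set. PTGS2, the inducible cyclooxygenase, went from 4.68, 4.75 and 4.92 down to background in each Pax5-deficient sample. This was a fall of at least 1.89-fold (limma adjusted p = 0.000474). Its other probe set was at background in every sample and did not pass (0.06 ± 0.09), and the mean of both PTGS2 probe sets fell by 0.50. IL18, IL10 and CCL4 had differences of -0.79 ± 0.27, 0.17 ± 0.09 and 0.18 ± 0.10. A dimmer IL18 probe set passed as lower (limma adjusted p = 0.0452), with 2 wild-type samples and no Pax5-deficient sample above background. In every sample 7 of the 15 were at background, among them IL6, IL12B and IFNW1, a choice of names made with their values known.

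None of 8 measured other sensors of nucleic acids and microbes passed limma. At an unadjusted p under 0.05, 2 of the 8 were called, NOD1 lower and TMEM173 higher, where 30.1% of all genes were. CGAS, the sensor of cytosolic DNA, NLRP3, of the inflammasome, and TMEM173 (STING) had differences of 0.03 ± 0.13, 0.06 ± 0.10 and 0.32 ± 0.09. Over the 8 role lists 13 of 73 genes fell, or 17.8%, and 4 rose, or 5.48%, where 9.74% and 6.01% of all genes did. Their median difference was 0.05, and that of all genes 0.03. Over all genes 1267 passed as lower and 782 as higher, and after quantile normalization 1138 and 1059, which for the 73 gave 12 and 5.

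**Figure D4:**
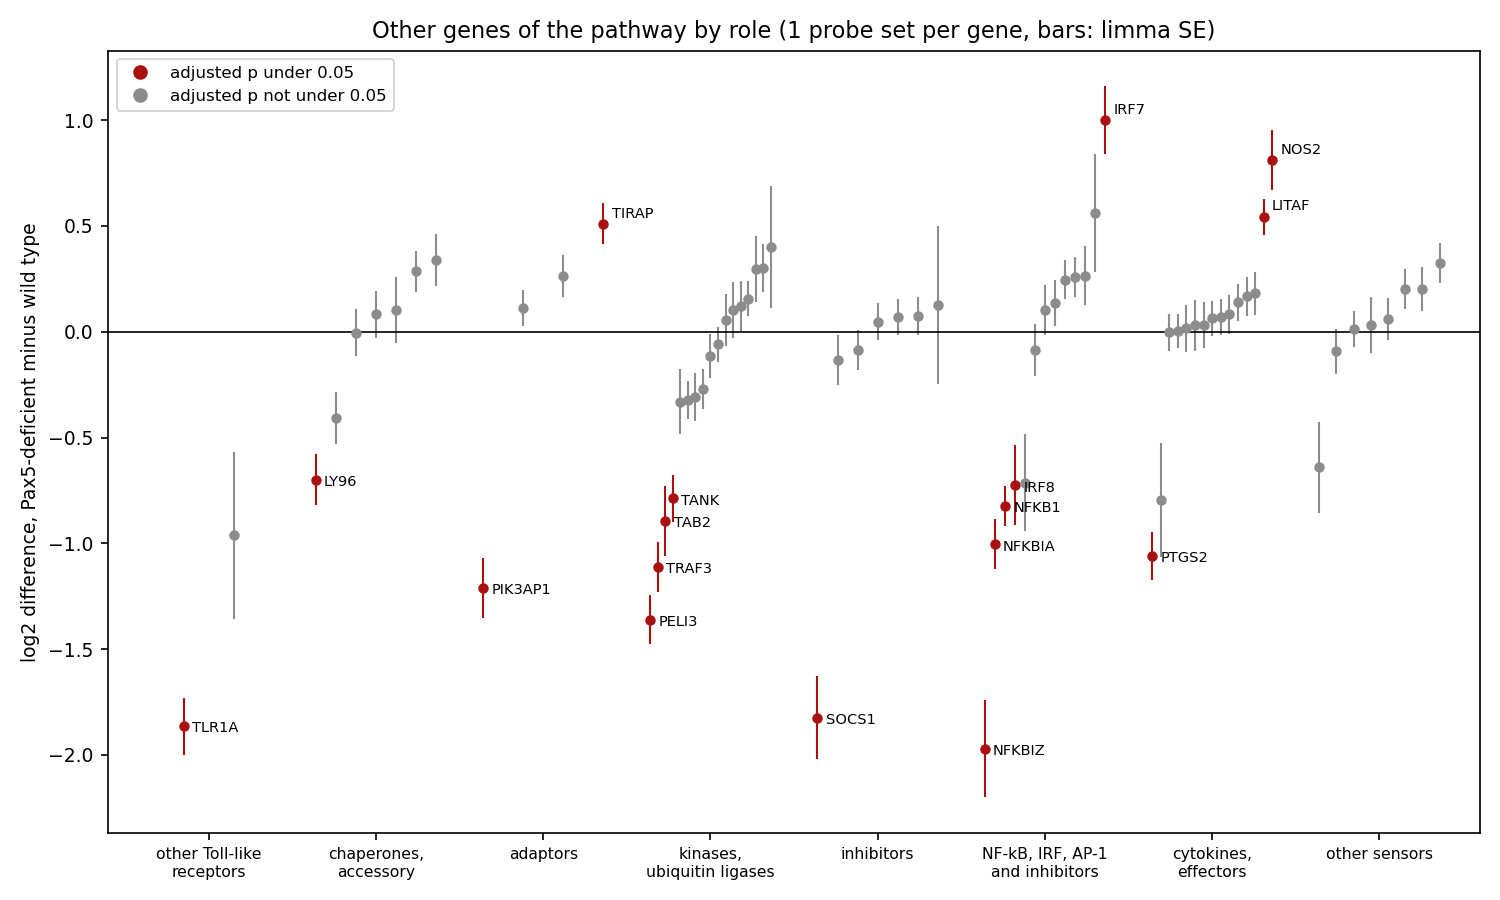
Log2 difference (vertical axis, Pax5-deficient minus wild type) of the 73 other measured genes of the pathway, 1 point per gene on its brightest probe set, grouped by role along the horizontal axis, with limma's SE as a bar and genes past an adjusted p of 0.05 in red and named. The 13 red points below 0 spread over 7 of the 8 roles, and the 4 above 0 are TIRAP, IRF7, NOS2 and LITAF.

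The genes that lie beside TLR7 and MYD88 in the RefSeq assembly GRCg7b were examined for their own differences. Of the 3 measured genes on either side of TLR7, TMSB4X, the actin-binding thymosin next to it, fell by 0.79 ± 0.13 log2 units (SE, 3 samples a group; limma adjusted p = 0.00482), and RAB9A, a GTPase of endosomes, by 0.87 ± 0.15. EGFL6 passed as lower but was at background in both groups. PRPS2, on the other side, rose by 0.38 ± 0.10, and FRMPD4 and MSL3 did not pass. Over all genes 15.8% passed, 9.74% as lower and 6.01% as higher. None of the 6 neighbours of MYD88 passed. At an unadjusted p under 0.05, 2 of the 6 were called, ACAA1 and SLC22A13L, both higher, which is close to the 30.1% of all genes. The median difference of genes on chromosome 1 was 0.02, and on chromosome 2 it was 0.02. Of the measured genes on these chromosomes 11.3% and 12.4% passed as lower. Whether the neighbours of TLR7 share a cause with it was not tested.

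The closest genes in pattern were sought among 9211 genes above background in all samples of a group, by the Euclidean distance of 6 mean-centred log2 values. For TLR7 they were VWA3B at 0.29, SAMD15 at 0.31 and P4HA1 at 0.34. For MYD88 they were STX7, a syntaxin of late endosomes, at 0.05, LOC421419 at 0.10 and LIMD2 at 0.12. STX7 fell by 0.95 ± 0.08 log2 units (SE, 3 samples a group). That this is close to the 0.96 of MYD88 follows from the choice by distance over the same values. These are descriptions over 6 samples that share the group difference.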

How the data were processed

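RNA of 6 DT40 samples was hybridised to Affymetrix chicken arrays. The authors deposited log2 values. The submitters' processing notes name RMA as the method, with no version. Samples were grouped by title. After 96 array controls were left out, 38439 probe sets were fitted in R 4.3.3 with limma 3.58.1 (group as the only term, eBayes, two-sided). P-values were adjusted over all of them after Benjamini and Hochberg, with a threshold of 0.05. Gene symbols came from the platform annotation, checked through Entrez IDs against the RefSeq table of GRCg7b, which also gave chromosomes and gene order. The brightest probe set, by its mean over samples, stood for a listed gene. Symbols were matched directly or by a synonym held by 1 gene (ZBP1 excepted, since the synonym names another protein). Of 97 listed pathway symbols 73 matched a measured gene. The others, which may include further names of the same gene, were not analysed here.

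Background was the 95% point, on each array, of 689 probe sets taken as virus genome ones from the form of their IDs, 687 of them without a gene symbol. These include a probe set annotated with REL, and whether any of them reads a transcript of these cells was not tested. This definition was chosen once values had been seen. Where no sample of a group exceeded it, the fold is a bound. The text names each pathway gene that passed and up to 3 per list that did not, those with the highest mean, and for TLR7 and MYD88 the 3 closest genes. The members and lists were chosen with earlier results of these data known. The fit was tested on simulated data. Plots were drawn with matplotlib 3.10.9. Alternatives were quantile normalization, centring, a filter on dim probe sets, a variance trend, a replicate block, a test against 0.5, probe set means and each sample left out. Each was adjusted over its own rows, which were genes for probe set means and the kept probe sets for the filter. Precision is limited by the small number of arrays.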

Additional observations from a re-analysis of the deposited data

How the results depend on the processing

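TLR7 and the brighter MYD88 probe set stayed the 2 called among the 15 under all alternatives run on these probe sets, also when tested against a difference of 0.5. The TLR7 difference ranged from -1.65 to -1.37. The MYD88 difference ranged from -0.997 to -0.86, apart from the -0.31 of its averaged probe sets. The 15 probe sets and the pathway genes on their brightest probe set held 19 called results. Leaving aside the test against 0.5, 18 of them kept direction and call, and IRF8 did not. Which pathway genes passed the test against 0.5 is not given here. Neighbouring genes, markers, genes of like pattern and dimmer pathway probe sets were not run under the alternatives. Over the array 4085 probe sets passed, 780 when tested against 0.5 and 2490 to 4172 with 1 sample left out, the lowest without wild-type replicate 2. The pathway genes called went from 17 to between 16 and 19 with 1 sample left out. The mean of all probe sets gave 24, adjusted over genes instead of probe sets, so this count cannot be set against the 17. The share of all genes called in that fit is not given here.

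Values that did not pass changed sign in some settings, and the cause was not tested. With 1 sample left out, the dimmest TLR3 probe set ranged from -0.0504 to 0.121, the dimmer TLR5 probe set from -0.00066 to 0.183, the brightest TLR15 probe set from -0.0291 to 0.0834, the second from -0.0075 to 0.226, SLC15A4 from -0.118 to 0.0762, TOLLIP from -0.0073 to 0.0802, REL from -0.166 to 0.0257, CGAS from -0.103 to 0.131 and NLRP3 from -0.00052 to 0.141. SLC15A4 was 0.0946 after quantile normalization, and with the mean of all probe sets UBE2N was 0.0308, CYLD -0.0859 and CGAS -0.0558.

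The replicate numbers are shared by the groups, but same-numbered samples did not deviate together throughout (correlations across probe sets of 0.12, 0.07 and -0.01), and wild-type replicate 3 did not correlate best with its own number. With the replicate block 4116 probe sets, 2 of the 15 and 18 pathway genes passed, IL18 among them (-0.79, limma adjusted p = 0.00265). A background at the 99% point, chosen after seeing the data, left TLR7 and both MYD88 probe sets above it in every sample, and TLR21 in 1 of 6 on its brightest probe set.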
